A study of Mus musculus with 15 samples.

Results

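Interferon-stimulated genes are the genes that cells switch on when interferon reaches them. A list of 41 mouse symbols of this kind was matched to the genes measured in 21EM15 cells, an immortalized mouse lens epithelial cell line, and 38 were measured in the cultures and 37 in the spheroid regions, all 37 of them in both, of 11677 and 11299 genes in all. *Ifih1*, *Oas1a* and *Igtp* were not analysed here, and *Trim25* was measured in the cultures only. The list was compiled once *Mx1* and *Gbp3* were known to differ between these samples, so the values below were in part what selected the members. Counts and fold changes of the members are therefore given as a description, with no p-value of their own, and nothing is read from them beyond the measured values.

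RNA was profiled by QuantSeq sequencing of transcript 3′ ends in 15 samples, all of them of this single line, labelled WT and with no treatment in their labels. There were 4 samples of 2D cultures, each from a dish of adherent cells, and 4 samples of 3D cultures, each from pooled spheroids (also called lens organoids) grown on a non-adhesive coating. A further 4 samples came from the Internal region and 3 from the External region of such spheroids, isolated by laser capture microdissection from pooled spheroids, and their RNA was extracted with another kit than that of the cultures. A further external sample that the study set aside was not analysed here.

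Type I interferons bind the receptor made of IFNAR1 and IFNAR2, whose kinases JAK1 and TYK2 phosphorylate transcription factors, STAT2 among them. Together with IRF9 this forms a complex that binds the interferon-stimulated response element in promoters, while the gamma-activated site is bound after interferon gamma. The induced genes include sensors of foreign nucleic acid, proteins that block viral entry, translation and assembly, and regulators that strengthen or dampen the response itself, and several are also known to be expressed at a low level without any infection.

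The 2D samples held between 7305053 and 9362587 reads over the listed genes and the 3D samples between 7727642 and 8364276, so that the depth of the groups overlapped. Depth ranged from 4256391 to 11702504 reads in the Internal samples and from 4044230 to 6086089 in the External samples. A count of 3 reads, taken as the smallest signal, stood for between 0.248 and 0.802 CPM (the reads of a gene scaled to the library size), for counting error only. Of 11 lens markers, 6 were measured in both data sets, and their summed level was between 875 and 1246 CPM in 2D, 1485 and 1866 in 3D, 1366 and 1711 in the Internal and 931 and 1008 in the External samples. Of 10 leukocyte markers, only *Cd68* was measured in the cultures, at up to 1.64 CPM, and no endothelial marker of 5 was measured in either data set. Reads of the 7 measured mitochondrially encoded genes made up 2.27% to 3.72% of the reads in 2D against 4.02% to 6.23% in 3D, and 2.53% to 3.6% in the External against 5.42% to 6.98% in the Internal samples.

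The first comparison asked how 3D growth changed the expression of these genes. All 38 members had a higher mean log2 CPM in 3D than in 2D, with a median log2 fold change of 2.04 against -0.03 over all genes, and the summed level of the members was 587 to 1609.6 CPM in the 2D samples and 2949 to 4709 CPM in the 3D samples. Of the 38, 22 were called higher in 3D (limma, adjusted p under 0.01 and absolute log2 fold change over 1) and 0 were called lower, beside 2.92% of all genes called higher and 1.51% called lower. The exception by mean CPM was *Trim25*, with a ratio of 3D to 2D of 0.987 and a log2 fold change of -0.25 without the 2D replicate 3. In 33 members every 3D sample lay above every 2D sample, beside 12.0% of all genes. As the members were selected on such differences, these shares are not compared further. The count of members called ranged from 8, without the 3D replicate 3 or without the 3D replicate 4, to 30, without the 2D replicate 2, while the number of all genes called higher ranged from 112 to 483 in the same 8 fits. *Bst2*, *Gbp2*, *Ifi44*, *Ifit3*, *Ifitm3* and *Zbp1* were called in all 8 fits. The counts of calls include *Mx1* and *Gbp3*, but nothing is read from their calls, since these genes led to the list. With each 2D sample under 3 reads, *Mx1* was also in the table through its 3D samples only. Of the other called members, *Irf9* and *Lgals3bp* were called in 1 fit, *Parp14* and *Rtp4* in 2, *Gbp7* in 3, *Oasl2* in 4, *Isg15*, *Mx2*, *Rsad2* and *Ifi35* in 5, and *Irf7*, *Ifit1*, *Ifit3b* and *Usp18* in 6. In such bulk samples, a change in the share of cells that express a gene cannot be told apart from a change in the RNA per cell.

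**Figure D1:**
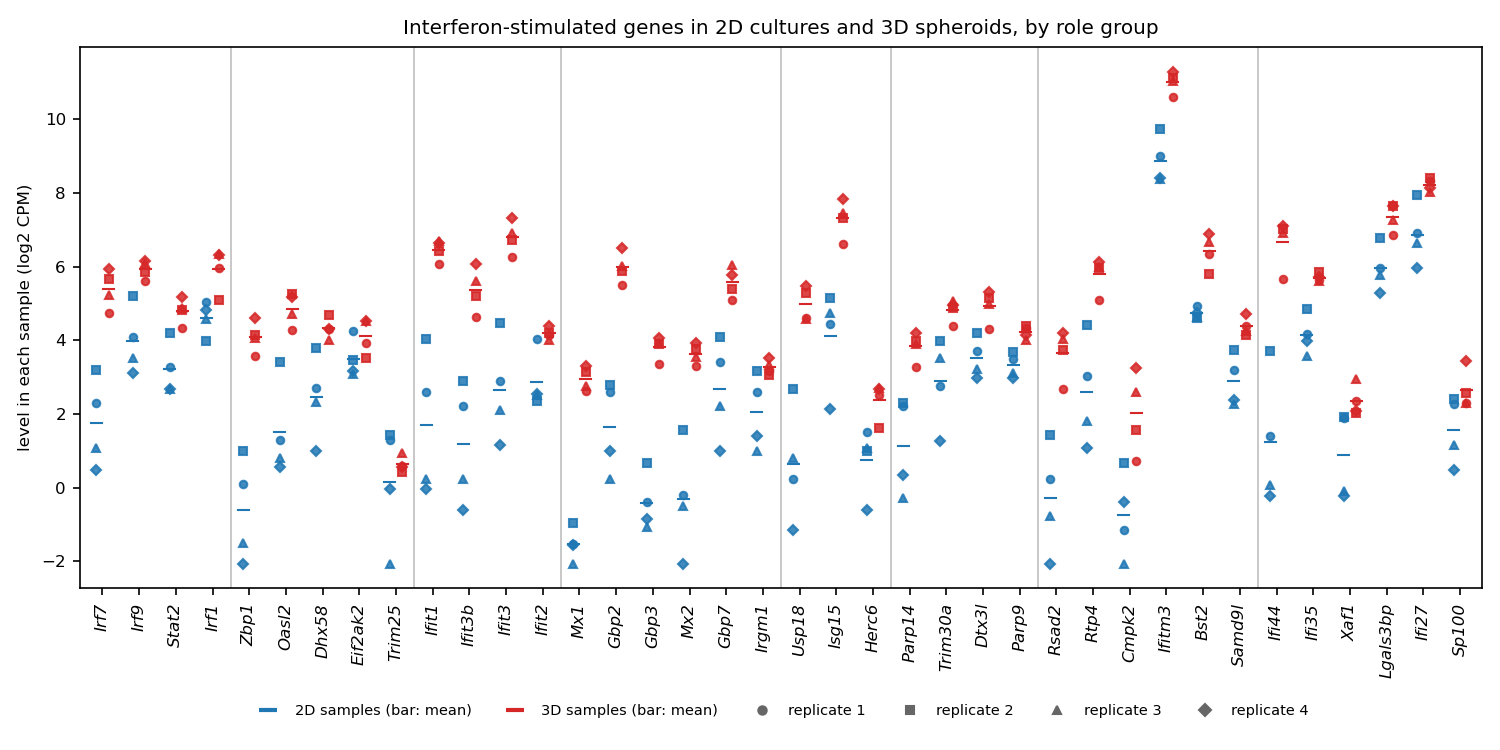
Level of each of the 38 measured members in every 2D and 3D sample (log2 CPM, points by replicate, bars for group means), ordered by role group between the grey lines and by fold change within each. The 3D points sit above all 2D points in 33 of the 38 genes. The SD of the log2 CPM was larger in 2D than in 3D in 36 genes, some of them with few 2D reads. The share over all genes is not given, and nothing is read from this count.

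The 4 transcription factors among the members were all higher in 3D, and their 3D and 2D samples did not overlap. *Irf7* (chr7:141262706-141266481, GRCm38), the factor that amplifies interferon production, had 45, 65, 16 and 11 reads in the 2D replicates 1 to 4 and 206, 405, 289 and 490 reads in the 3D replicates 1 to 4, a log2 fold change of 3.63 ± 0.53 (SE, n = 4 and 4). *Irf9* (chr14:55603571-55610030), the DNA-binding part of the complex with STAT2, had 16.9, 36.7, 11.1 and 8.43 CPM in 2D and 48.998, 57.0, 68.8 and 71.0 CPM in 3D, a log2 fold change of 1.95 ± 0.38. Both were called higher, and in both the 2D replicate 2 was the highest of its group. *Stat2* (chr10:128270559-128292849), whose protein carries the activation domain of that complex, had 9.53, 18.2, 6.21 and 6.14 CPM in 2D and 19.8, 27.8, 29.2 and 35.7 CPM in 3D, with a log2 fold change of 1.58 ± 0.34. *Irf1* (chr11:53770014-53778374), a factor induced mainly by interferon gamma, had 32.9, 15.6, 23.8 and 28.2 CPM in 2D and 61.6, 33.8, 81.3 and 80.0 CPM in 3D, with a log2 fold change of 1.32 ± 0.31. Neither was called, and the gap between their groups was narrow: the lowest 3D sample of *Stat2* was 19.8 CPM against 18.2 CPM in the highest 2D sample, and that of *Irf1* 33.8 against 32.9 CPM.

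Among the genes for sensing nucleic acid and acting on it, *Zbp1* and *Oasl2* were called higher in 3D and the other 3 were not called. *Zbp1* (chr2:173206612-173218923), whose protein senses left-handed Z-form nucleic acid and can trigger necroptosis, had 8, 13, 1 and 0 reads in 2D and 91, 140, 126 and 193 reads in 3D, or 0.838, 1.77, 0.117 and 0 CPM against 11.6, 17.3, 16.4 and 23.9 CPM. The log2 fold change was 4.69 ± 0.61, and 2 of the 2D samples were under the limit of 3 reads, so that its size depends on the prior count in the deposited values. *Oasl2*, a relative of the oligoadenylate synthetases, had 1.25 to 10.4 CPM in 2D and 19.3 to 37.8 CPM in 3D, with a log2 fold change of 3.34 ± 0.55. *Dhx58*, which encodes the RIG-I-like receptor LGP2, had a log2 fold change of 1.87 ± 0.48 with groups that did not overlap. The smallest differences of the 38 were those of *Eif2ak2*, which encodes the double-stranded RNA-activated kinase PKR (0.63 ± 0.32), and of *Trim25*, a ubiquitin ligase that acts on RIG-I (0.48 ± 0.71), and in both the groups overlapped.

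The IFIT genes encode proteins that bind RNA with foreign 5′ ends, and the 4 of them measured lie together on chromosome 19, from *Ifit2* (chr19:34550694-34576419) and *Ifit3* (chr19:34583531-34588731) to *Ifit3b* (chr19:34607970-34613401) and *Ifit1* (chr19:34640871-34650009). *Ifit1*, *Ifit3* and *Ifit3b* were called higher in 3D, with non-overlapping groups. *Ifit1* had 5.76, 16.1, 0.937 and 0.728 CPM in 2D and 66.9, 85.3, 103 and 99.99 CPM in 3D, a log2 fold change of 4.75 ± 0.76. *Ifit3* had 7.23, 22.1, 4.10 and 1.98 CPM in 2D and 76.8, 105, 120.4 and 159 CPM in 3D, a log2 fold change of 4.14 ± 0.57. *Ifit3b* had 4.40, 7.23, 0.937 and 0.416 CPM in 2D and 24.4, 36.3, 48.4 and 67.4 CPM in 3D, a log2 fold change of 4.19 ± 0.69. In all of these 3 genes the order of the 2D samples was the same, with replicate 2 highest and replicate 4 lowest. *Ifit2* stood apart: its log2 fold change was 1.32 ± 0.34, it was not called, and its 2D replicate 1, with 153 reads, stood above replicates 2 to 4, with 36 to 54.

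The promoters of these 3 genes are shown because each holds 2 exact copies of the core of the interferon-stimulated response element, written GAAANNGAAA, on the strand opposite to the gene (capitals, so that the copies read TTTCNNTTTC). The stretches come from RefSeq (GRCm38.p6, plus strand) and are chr19:34640765-34640833 for *Ifit1* (-124 to -56 relative to the start that RefSeq annotates, which can differ from the GENCODE gene starts given above), chr19:34583353-34583436 for *Ifit3* (-176 to -93) and chr19:34607749-34607832 for *Ifit3b* (-208 to -125). The *Ifit3* and *Ifit3b* stretches differ at 0 of 84 bases, although they sit at different distances from the annotated starts, and no exact copy was found in the *Ifit2* window.
Ifit1: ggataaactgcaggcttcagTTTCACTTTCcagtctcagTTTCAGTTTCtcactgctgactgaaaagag
Ifit3: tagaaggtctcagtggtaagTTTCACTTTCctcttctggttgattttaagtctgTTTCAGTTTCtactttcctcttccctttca
Ifit3b: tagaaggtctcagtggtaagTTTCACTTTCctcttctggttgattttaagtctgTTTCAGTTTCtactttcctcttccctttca

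Of the 6 large GTPases measured, 5 were called higher in 3D. *Mx1* (chr16:97447035-97462907), whose product traps viral nucleocapsids, was all but silent in 2D, with 1, 2, 0 and 1 reads in the replicates 1 to 4, and had 46, 70, 50 and 77 reads in 3D, or 5.87, 8.64, 6.49 and 9.54 CPM. The total of 243 reads in 3D against 4 in 2D gives a depth-scaled ratio of 67.1 (95% Clopper-Pearson interval 25.9 to 248, counting error only). The fitted log2 fold change was 4.48 ± 0.39. Since *Mx1* led to the list and was in the table through its 3D samples only, neither value is a test of the difference. *Mx2* (chr16:97535308-97560900) had 0.628, 2.73, 0.468 and 0 CPM in 2D and 9.70, 13.3, 11.4 and 14.9 CPM in 3D, a log2 fold change of 3.93 ± 0.63. Of the 50-base stretches in the last 300 bases of *Mx1* transcripts, 2.27% also occur in *Mx2*, so that reads of the pair could be told apart over most of that length.

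The guanylate-binding proteins, GTPases that assemble on the membranes of intracellular pathogens, lie side by side on chromosome 3. *Gbp2* (chr3:142620602-142638008) had 5.86, 6.69, 0.937 and 1.77 CPM in 2D and 45.2, 58.5, 64.0 and 91.3 CPM in 3D, a log2 fold change of 4.32 ± 0.52. *Gbp3* (chr3:142560026-142573209), one of the genes whose values led to the list, had 5, 10, 2 and 3 reads in 2D and 78, 119, 116 and 132 reads in 3D, a log2 fold change of 4.22 ± 0.41. *Gbp7* (chr3:142530342-142550149) had 1.77 to 16.6 CPM in 2D and 33.7 to 65.6 CPM in 3D, a log2 fold change of 2.90 ± 0.55. In the 3 genes no 2D sample reached the lowest 3D sample. The immunity-related GTPase gene *Irgm1* was the member of this group that was not called (1.23 ± 0.44), and its groups overlapped.

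The response element core lies within 60 bases of the RefSeq start in the promoters of all 3 guanylate-binding protein genes, again on the opposite strand. The RefSeq stretches (GRCm38.p6, plus strand) are chr3:142620584-142620633 for *Gbp2*, chr3:142559979-142560034 for *Gbp3*, where 2 copies overlap, and chr3:142530263-142530312 for *Gbp7*. *Irgm1*, which was not called and is not shown, holds 2 overlapping copies on its own strand. The capitals mark the core.
Gbp2: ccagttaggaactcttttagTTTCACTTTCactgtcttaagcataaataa
Gbp3: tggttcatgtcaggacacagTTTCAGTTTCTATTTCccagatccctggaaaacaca
Gbp7: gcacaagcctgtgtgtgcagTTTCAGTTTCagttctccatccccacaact

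The ISG15 system attaches the ubiquitin-like protein ISG15 to other proteins and removes it. *Isg15* itself (chr4:156199424-156200818) had 21.5, 35.2, 26.7 and 4.16 CPM in 2D and 98.0, 160.4, 173 and 229 CPM in 3D, a log2 fold change of 3.19 ± 0.55, and its 2D replicate 4 was far below the other 2D samples. *Usp18* (chr6:121245906-121270917), whose protein removes ISG15 and dampens signalling at the receptor, had 0.943, 6.14, 1.52 and 0.208 CPM in 2D and 24.2, 39.0, 23.5 and 44.1 CPM in 3D, a log2 fold change of 4.34 ± 0.65. Both were called higher. *Herc6*, the gene for the mouse ISG15 ligase, was not called (1.63 ± 0.48), and 34.5% of its 50-base stretches at the 3′ end also occur in the predicted gene *Gm45193*, so that its counts may be split. The *Isg15* promoter is shown because its 3 copies of the core overlap in a run on the strand of the gene (RefSeq, GRCm38.p6, minus strand, chr4:156200855-156200916, -98 to -37 relative to the start).
Isg15: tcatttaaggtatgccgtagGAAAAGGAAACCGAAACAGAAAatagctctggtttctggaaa

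The genes of the PARP and ubiquitin ligase group were all higher in 3D with non-overlapping groups, and 1 of the 4 was called. That was *Parp14*, a mono-ADP-ribosyltransferase gene, with 0.586 to 4.64 CPM in 2D, 9.44 to 18.1 CPM in 3D and a log2 fold change of 2.69 ± 0.56. *Parp9* (0.91 ± 0.22) and *Dtx3l* (1.41 ± 0.30), whose proteins work as a complex and whose genes overlap at their starts on chromosome 16, were not called, nor was *Trim30a* (1.95 ± 0.49), 28.3% of whose 3′ stretches also occur in *Trim30d*.

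Of the 6 membrane and metabolic antiviral genes, 4 were called higher, and all 6 had groups that did not overlap. *Ifitm3*, which blocks the entry of viruses from endosomes, was the most abundant member in reads, with 329 to 842 CPM in 2D and 1543 to 2500.4 CPM in 3D, a log2 fold change of 2.13 ± 0.28. *Rsad2* (chr12:26442746-26456452), which encodes viperin, had 9, 18, 3 and 0 reads in 2D and 48, 107, 125 and 147 reads in 3D, a log2 fold change of 3.95 ± 0.67. Its neighbour *Cmpk2*, a nucleotide kinase gene, had a log2 fold change of 2.77 ± 0.70 and was not called, with a 3D range of 1.40 to 9.29 CPM. *Rtp4* (3.21 ± 0.60) and *Bst2*, the gene for the virus tether tetherin (1.69 ± 0.22), were called, whereas the restriction factor gene *Samd9l* (1.48 ± 0.33) was not. The *Bst2* and *Rsad2* stretches (RefSeq, GRCm38.p6, minus strand, chr8:71537567-71537622 and chr12:26456543-26456592) differ in layout: *Bst2* holds 2 overlapping copies of the core on its own strand, and *Rsad2* 1 copy on the opposite strand.
Bst2: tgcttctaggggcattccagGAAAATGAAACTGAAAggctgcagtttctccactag
Rsad2: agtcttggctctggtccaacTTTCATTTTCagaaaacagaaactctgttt

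The largest fitted log2 fold change of all members was that of *Ifi44* (chr3:151730922-151749960), a cytoplasmic protein gene, with 2.41, 12.8, 0.820 and 0.624 CPM in 2D and 50.1, 129, 121 and 138 CPM in 3D, a log2 fold change of 5.43 ± 0.73. The 2D replicate 2 was the highest 2D sample, and the 3D replicate 1 was below the other 3D samples. The prior count in the deposited values compresses genes with few reads, so that *Mx1*, under 3 reads in every 2D sample, cannot be ranked against it. Of the other 5 genes of this last group, *Ifi35* (1.56 ± 0.24) and the secreted glycoprotein gene *Lgals3bp* (1.40 ± 0.29) were called, and *Ifi27* (1.36 ± 0.33), *Xaf1* (1.47 ± 0.55) and the nuclear body gene *Sp100* (1.07 ± 0.47) were not. Only in *Sp100* did the groups of these 5 overlap.

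Promoter windows from 250 bases before to 50 bases after an annotated start were found in RefSeq for 29 of the 38 members. *Usp18*, *Mx1*, *Parp14*, *Rtp4*, *Zbp1*, *Mx2*, *Dhx58*, *Parp9* and *Ifi27* had no window in the promoter set used, which does not mean that RefSeq lacks them. The core GAAANNGAAA, searched on both strands, occurred in 14 of the 29 members. It was found in 42.9% of their 35 windows, against 3.44% of all 32851 windows of the same length. The members with it included *Eif2ak2*, *Irgm1*, *Stat2* and *Trim30a*, which were not called in 3D. No exact copy was found in the windows of *Irf7*, *Irf9*, *Oasl2*, *Ifi44*, *Ifi35* and *Lgals3bp*, which were called. Stretches are printed above for called members only, and whether the core goes with the calls was not tested. The gamma-activated site TTCNNNGAA, which reads alike on both strands and overlaps the core in *Bst2* and *Ifitm3*, occurred in 7 of the 29 members and in 7 of their 35 windows, against 8.30% of all windows. *Irf1*, *Gbp7*, *Ifi35* and *Ifit2* were among the members with the latter. A match describes these letters in this window only and is not evidence of binding.

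The second comparison asked whether the same genes differed between the Internal and External regions of the spheroids. Of the 37 members measured, 33 had a higher mean log2 CPM in the Internal samples, with a median log2 fold change of 0.46 against 0.04 over all genes. At the same thresholds 2 members were called higher, *Mx1* and *Mx2*, beside 3.27% of all genes, and 0 lower, beside 4.35% of all genes. In 4 members, *Mx1*, *Mx2*, *Sp100* and *Samd9l*, every Internal sample lay above every External sample, beside 13.5% of all genes. The median fell to 0.21 without the Internal replicate 3. In 31 of the 37 the difference was under 1 on the log2 scale. The 2 data sets were normalized separately, so that levels are not compared between cultures and regions.

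**Figure D2:**
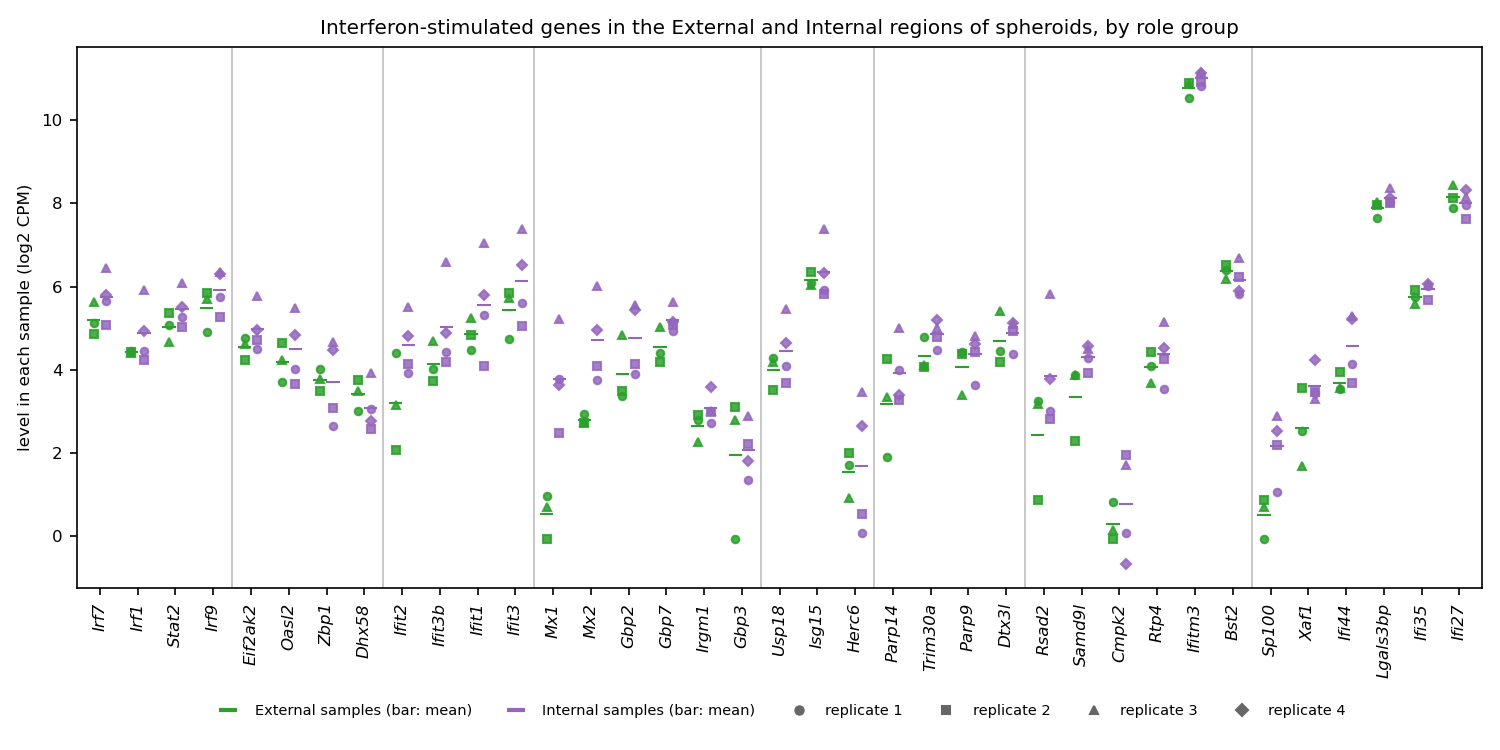
Level of each of the 37 measured members in every External and Internal sample (log2 CPM, points by replicate, bars for group means), ordered by role group between the grey lines and by fold change within each. The Internal replicate 3 (triangles) is the highest Internal sample in 29 genes, and the groups are apart in 4 genes.

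*Mx1* had 89, 46, 163 and 148 reads in the Internal replicates 1 to 4 and 10, 3 and 5 reads in the External replicates 1 to 3, or 13.3, 5.31, 37.3 and 12.2 CPM against 1.65, 0.653 and 1.34 CPM. The ratio of the read totals, 446 to 18, was 11.2 after scaling to depth (95% Clopper-Pearson interval 7.02 to 19.1, counting error only), and the log2 fold change was 3.25 ± 0.60 (SE, n = 4 and 3). *Mx2* had 13.2, 16.9, 64.8 and 30.8 CPM in the Internal samples and 7.41, 6.31 and 6.42 CPM in the External samples, a log2 fold change of 1.90 ± 0.42. The External samples were close together in *Mx2* and the Internal samples spread over a wide range, with replicate 3 highest in both genes. *Mx2* was called in 5 of the 7 fits that left out 1 sample. Its call was lost without the Internal replicate 3 (log2 fold change 1.46), without the External replicate 2 (1.86) and with the replicate block. *Mx1* was called in all 7, but nothing is read from its call or its interval here either, since it led to the list. With voom on the recovered reads, or without the variance trend, neither was called. *Sp100* (0.659 to 1.52 CPM in External and 1.80 to 7.10 CPM in Internal samples) and *Samd9l* (4.57 to 14.4 and 14.8 to 23.3 CPM), the other 2 genes without overlap, had log2 fold changes of 1.66 ± 0.71 and 0.97 ± 0.39 and were not called.

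The 4 transcription factor genes overlapped between the regions. *Irf7* had 49.8, 33.5, 87.5 and 55.8 CPM in the Internal and 34.4, 28.9 and 49.2 CPM in the External samples, a log2 fold change of 0.54 ± 0.27. *Irf9* had 54.0, 38.3, 81.1 and 78.7 CPM in the Internal and 29.97, 57.4 and 51.9 CPM in the External samples, a log2 fold change of 0.43 ± 0.26. All External values of *Irf9* except that of replicate 1 lay within the Internal range. *Stat2* had 38.5, 32.2, 67.6 and 45.2 CPM in the Internal and 33.8, 40.7 and 25.1 CPM in the External samples (0.44 ± 0.26). *Irf1* had 21.6, 18.7, 60.5 and 30.1 CPM in the Internal and 21.6, 21.3 and 20.9 CPM in the External samples (0.46 ± 0.32). The 3 External samples of *Irf1* were nearly equal, and the spread in this gene came from the Internal samples, with replicate 3 highest.

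The IFIT genes were each higher on average in the Internal region, with log2 fold changes from 0.69 to 1.39, but in none of the 4 were the groups apart. *Ifit1* had 39.9, 16.6, 132 and 55.5 CPM in the Internal and 21.9, 28.3 and 38.0 CPM in the External samples (0.71 ± 0.41). *Ifit3* had 48.6, 32.9, 166 and 91.0 CPM in the Internal and 26.7, 57.0 and 52.9 CPM in the External samples (0.69 ± 0.36). *Ifit3b* had 21.3, 17.9, 95.7 and 29.3 CPM in the Internal and 15.8, 13.1 and 25.4 CPM in the External samples (0.88 ± 0.41). The Internal replicate 3 was above all External samples in each of the 3, and the Internal replicate 2 was below the highest External sample.

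*Gbp2*, *Gbp3*, *Isg15* and *Usp18*, all called in the cultures, were not called between the regions. *Gbp2* had 14.7, 17.2, 46.9 and 42.8 CPM in the Internal and 10.05, 10.9 and 28.1 CPM in the External samples (0.86 ± 0.41). *Gbp3* had 15, 38, 31 and 39 reads in the Internal and 4, 38 and 25 reads in the External samples (0.12 ± 0.71), and its mean CPM was lower in the Internal region although its mean log2 CPM was slightly higher. The direction of this gene depended on single samples, with a log2 fold change of -0.88 without the External replicate 1 and of -0.15 without the Internal replicate 3. *Isg15* had 60.6, 56.6, 166 and 79.5 CPM in the Internal and 68.0, 81.2 and 65.2 CPM in the External samples (0.20 ± 0.26), and without the Internal replicate 3 the difference was -0.13. *Usp18* had 16.6, 12.5, 43.5 and 24.7 CPM in the Internal and 19.3, 11.1 and 17.9 CPM in the External samples (0.47 ± 0.37). In each of these genes the groups overlapped.

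Other genes with large differences in the cultures, *Ifi44*, *Rsad2* and *Zbp1*, overlapped between the regions, unlike *Mx1* and *Mx2*. *Ifi44* had 17.2, 12.5, 38.9 and 36.8 CPM in the Internal and 11.4, 15.2 and 11.5 CPM in the External samples (0.89 ± 0.37). *Rsad2* had 7.80, 6.81, 55.9 and 13.4 CPM in the Internal and 9.22, 1.52 and 8.82 CPM in the External samples (1.42 ± 0.62). *Zbp1* had 5.999, 8.20, 25.0 and 21.8 CPM in the Internal and 15.8, 10.9 and 13.4 CPM in the External samples (-0.04 ± 0.44), with the External samples in the middle of the Internal range. Besides *Zbp1*, the mean log2 CPM was lower in the Internal region in *Dhx58* (-0.34), *Bst2* (-0.22) and *Ifi27* (-0.14). The log2 fold changes of the remaining members ran from 0.14 in *Herc6* to 1.02 in *Xaf1*.

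All 37 members measured in both data sets, which share no sample, had a higher mean log2 CPM in 3D. The count of shared directions therefore follows from the regions alone. In the Internal region 33 of them were higher and 4 lower, and 52.93% of all genes were higher there. *Mx1* and *Mx2* were called in both comparisons and 20 members in the cultures only, and whether the effects differ was not tested. The share of all genes called in both is not given, and *Mx1* led to the list, so that nothing is read from these counts. Side by side, the log2 fold changes were 4.48 and 3.25 for *Mx1*, 3.93 and 1.90 for *Mx2*, 5.43 and 0.89 for *Ifi44*, 4.75 and 0.71 for *Ifit1*, and 4.69 and -0.04 for *Zbp1*, in the cultures and in the regions. Spearman's rho of the 2 sets of fold changes was 0.21 over these genes, which are not independent of each other.

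**Figure D3:**
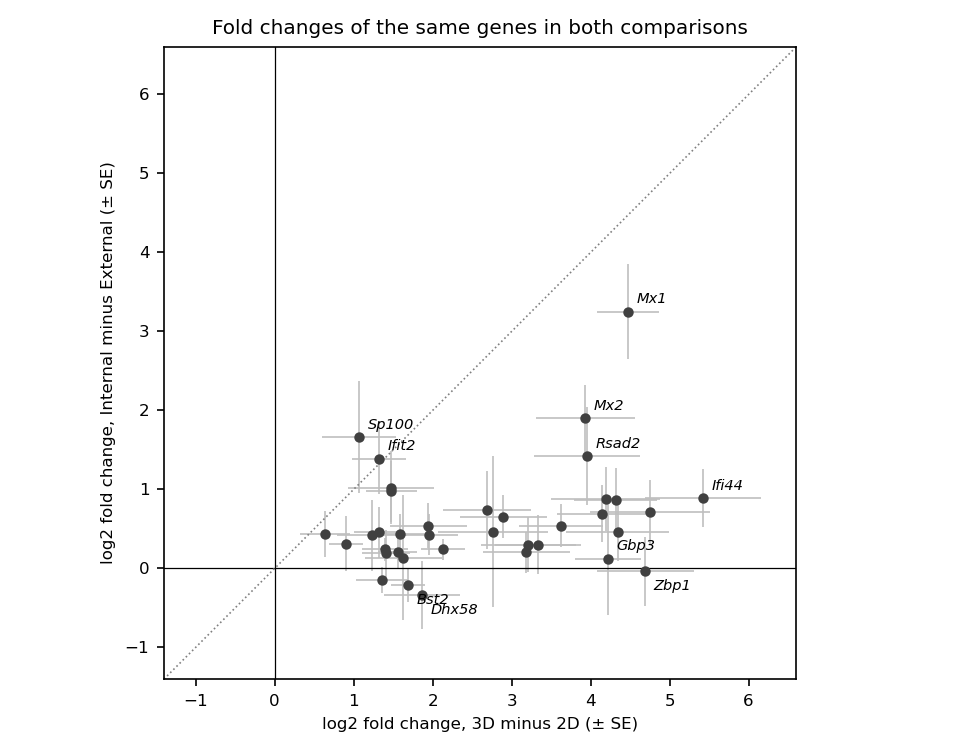
Log2 fold change of the 37 members in 3D against 2D (horizontal) and in the Internal against the External region (vertical), with standard errors, a dotted line of equality and selected genes named. All points lie to the right of 0, and *Mx1* and *Mx2* are the highest, at 3.25 and 1.90 on the vertical axis.

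Within each group but the External one, a single sample was the highest in most members. Among the 2D samples, replicate 2 was the highest in 33 of the 38 members, or 86.8%, against 30.5% of all genes, and replicate 4 the lowest in 24. The exceptions to the former were *Irf1*, *Eif2ak2*, *Ifit2*, *Herc6* and *Bst2*, each highest in replicate 1. Among the 3D samples, replicate 4 was the highest in 25 members (65.8%, against 24.6% of all genes) and replicate 1 the lowest in 23. Among the Internal samples, replicate 3, the shallowest with 4256391 reads, was the highest in 29 of 37 members (78.4%, against 26.5% of all genes). The External samples showed no such order, with 11, 17 and 9 members highest in replicates 1, 2 and 3. These shares use no difference between the groups, and they describe the order of single samples without a test.

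The size of these shifts differed between the groups. The median deviation of the members from their group mean was 0.27, 1.12, -0.51 and -0.89 log2 CPM in the 2D replicates 1 to 4, against -0.40, 0.03, 0.07 and 0.34 in the 3D replicates. It was -0.43, -0.47, 0.78 and 0.18 in the Internal replicates and -0.06, 0.07 and 0.07 in the External replicates. Other genes that interferon induces, which the list does not hold, were ordered in the same direction: the 2D replicate 2 was the highest 2D sample in 41 of 70 of them, and the Internal replicate 3 the highest Internal sample in 34 of 64.

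**Figure D4:**
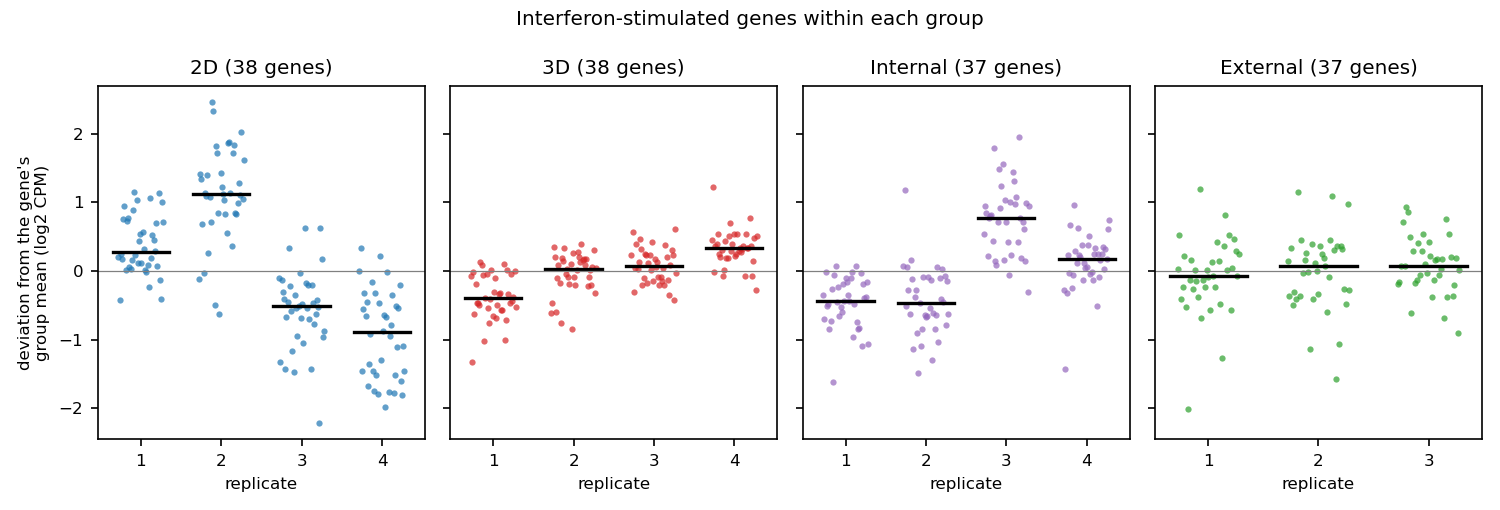
Deviation of each member from its own group mean (log2 CPM) in each replicate of the 4 groups, 1 point per gene and a black bar for the median. The 2D medians run from -0.89 to 1.12, the External medians are -0.06, 0.07 and 0.07, and the Internal replicate 3 stands at 0.78.

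The genes upstream of the members were described from a list of 63 symbols of ligands, receptors, transducers, sensors, regulators and restraints, some genes being listed under an older and a newer name, of which 38 were measured in the cultures and 37 in the regions. None of the 10 interferon genes listed, *Ifnb1* among them, was among the genes measured, so that the ligands are not analysed here. In 3D, 3 of the 38 (7.89%) were called higher, beside 2.92% of all genes, and 0 lower, beside 1.51% (limma, two-sided, and 3 and 0 with voom). By the unadjusted p, 16 of the 38 were under 0.05 in either direction, beside 3930 of all 11677 genes, and the median log2 fold change of the 38 was 0.08. *Stat3*, a transducer of the interleukin-6 family, rose from the range of 51.2 to 91.8 CPM in 2D to that of 154 to 175 CPM in 3D (1.30 ± 0.17, adjusted p = 0.00142). *Ddx58*, which encodes the RNA sensor RIG-I, rose from the range of 7.38 to 22.2 CPM in 2D to that of 29.1 to 41.1 CPM in 3D (1.52 ± 0.31, adjusted p = 0.00904). In both genes the groups were apart, but when 1 sample was left out the call of *Ddx58* held only without the 2D replicate 2, whereas that of *Stat3* held in all 8 fits. Each replicate was a dish or a pool of spheroids of its own, all of one cell line, so that these p-values measure the spread between cultures of that line.

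The receptors and the kinases on them did not pass the test in either comparison. *Ifnar1* had 12.5, 2.73, 2.81 and 3.95 CPM in 2D and 5.49, 4.07, 5.71 and 2.48 CPM in 3D (-0.07 ± 0.48, adjusted p = 0.933), with the 2D replicate 1 far above the rest. *Ifnar2* lay at 2.93 to 4.995 CPM in 2D and 1.61 to 2.93 CPM in 3D (-0.61 ± 0.32, adjusted p = 0.208). The receptor chain for interferon gamma, *Ifngr1*, lay at 35.1 to 47.4 CPM in 2D and 49.3 to 79.0 CPM in 3D, with groups apart but an adjusted p of 0.073. *Jak1* (0.31 ± 0.13, adjusted p = 0.112) and *Tyk2* (0.72 ± 0.27, adjusted p = 0.0897) overlapped between the groups. The same held for *Irf3*, the factor that starts interferon production (0.17 ± 0.16, adjusted p = 0.499), and for the inhibitor *Socs1* (0.90 ± 0.63, adjusted p = 0.344). *Mavs*, the mitochondrial adaptor of RIG-I, was lower in every 3D than in every 2D sample, with 47.0 to 57.4 CPM in 2D and 36.4 to 42.9 CPM in 3D, but did not pass (-0.34 ± 0.14, adjusted p = 0.11).

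Between the regions, 1 of the 37 upstream genes (2.7%) was called lower in the Internal samples, beside 4.35% of all genes, and 0 higher, beside 3.27% (limma, and 0 and 0 with voom). By the unadjusted p, 9 were under 0.05, beside 3793 of all 11299 genes, so that none of these shares was above that of all genes. *Rnaseh2a*, a subunit of the nuclease that removes ribonucleotides from DNA and so limits self nucleic acid, had 26.2, 20.8, 16.0 and 26.3 CPM in the Internal and 34.6, 42.9 and 69.5 CPM in the External samples (-1.09 ± 0.28, adjusted p = 0.00585). All Internal samples were below all External samples, and the call held in 3 of the 7 fits without 1 sample. It was lost without the Internal replicates 2 (-1.06) and 3 (-0.94) and without the External replicates 2 (-1.15) and 3 (-0.81). With the replicate block it was lost as well. *Ifnar1* was higher in every Internal sample (1.22 ± 0.57, adjusted p = 0.134). *Jak1* (0.42 ± 0.15, adjusted p = 0.0499), *Ifngr1* (0.38 ± 0.25, adjusted p = 0.29) and *Socs1* (0.69 ± 0.63, adjusted p = 0.476) had higher means, and *Irf3* (-0.29 ± 0.24, adjusted p = 0.426) and *Mavs* (-0.16 ± 0.27, adjusted p = 0.729) lower ones, and none passed. *Ifnar2* (0.03, adjusted p = 0.98) and *Tyk2* (0.07, adjusted p = 0.899) were close to 0.

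**Figure D5:**
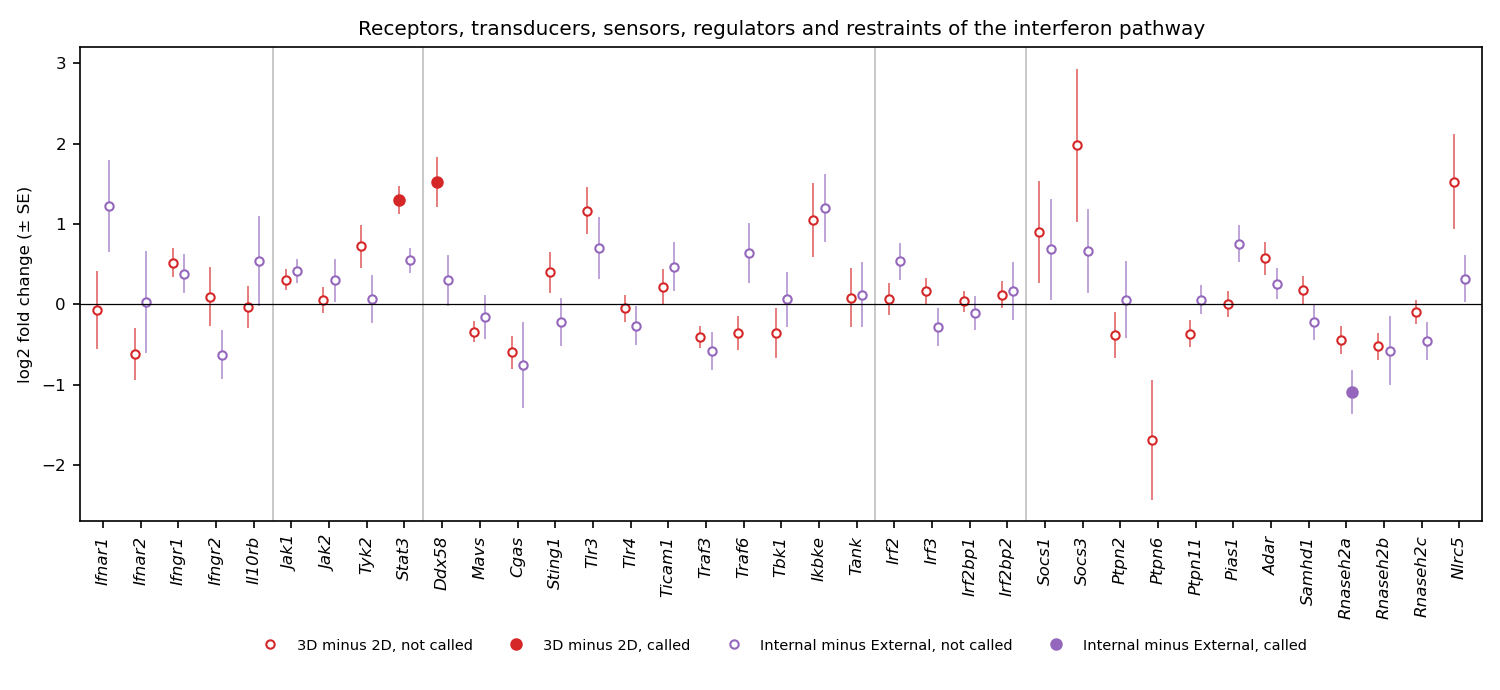
Log2 fold change with standard error of the measured receptors, transducers, sensors, regulatory factors and restraints of the pathway (between the grey lines, 1 gene not drawn) in 3D against 2D (red) and Internal against External (purple), filled where called. *Stat3* (1.30) and *Ddx58* (1.52) are filled in the cultures and *Rnaseh2a* (-1.09) in the regions.

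A second list, of 113 other genes known to be induced by interferon, was written with the members' results known and gave 70 genes in the cultures and 64 in the regions. In 3D, 16 of the 70 (22.9%) were called higher, beside 2.92% of all genes, and 0 lower, beside 1.51% (limma, and 13 and 0 with voom). By the unadjusted p, 53 were under 0.05 in either direction, beside 3930 of all 11677 genes. The 70 had a median log2 fold change of 1.24. When 1 sample was left out, the count ran from 4, without the 3D replicate 3 or without the 3D replicate 4, to 30, without the 2D replicate 2. The immunity-related GTPase gene *Iigp1* rose from 12, 27, 5 and 0 reads in the 2D replicates 1 to 4 to 135, 198, 233 and 261 reads in the 3D replicates 1 to 4 (4.62 ± 0.69, adjusted p = 0.00226). *Gbp11*, another guanylate-binding protein gene, had 0, 0, 0 and 0 reads in 2D and 62, 12, 76 and 65 reads in 3D, so that its mean level was at least 19.7-fold higher against a floor of 3 reads per library. It was in the table through its 3D samples only, so that its call, one of the 16, is given without a p-value. The mitochondrial protein gene *Ifi27l2a* rose from the range of 6.14 to 30.5 CPM in 2D to that of 197 to 329 CPM in 3D (3.99 ± 0.42, adjusted p = 0.000605). The other 5 of the 8 with the largest changes among the called genes were *Tmem140* (3.23, adjusted p = 0.000705), *Slfn8* (3.18, 0.00948), the helicase gene *Ddx60* (3.00, 0.00841), *Trim30d*, whose reads *Trim30a* may share (2.95, 0.00483), and the DNA sensor family gene *Ifi207* (2.94, 0.00077). Of these 8, *Slfn8* was called in 1 of the 8 fits without 1 sample (only without the 2D replicate 2) and not with the replicate block. *Trim30d* was called in 2 (without the 2D replicate 1 or 2) and *Ddx60* in 3 (without the 2D replicate 1, 2 or 3). *Iigp1* was called in 6 (lost without the 3D replicate 3 or 4), and *Ifi27l2a*, *Tmem140* and *Ifi207* in all 8. *Gbp11* was also called in all 8, but nothing is read from this, as it was in the table through its 3D samples only.

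In the regions, 4 of the 64 (6.25%) were called higher in the Internal samples, beside 3.27% of all genes, and 0 lower, beside 4.35% (limma, and 2 and 0 with voom). By the unadjusted p, 20 were under 0.05 in either direction, beside 3793 of all 11299 genes. The 64 had a median log2 fold change of 0.31. *Gbp11* had 40, 76, 47 and 163 reads in the Internal and 13, 3 and 5 reads in the External samples (2.63 ± 0.58, adjusted p = 0.00178). *Tmem140* had 24.9, 9.47, 26.1 and 26.6 CPM in the Internal and 4.45, 6.09 and 6.15 CPM in the External samples (1.82 ± 0.41, adjusted p = 0.00202). *Gbp8* (1.18 ± 0.25, adjusted p = 0.0015) and *Ifi27l2a* (1.06 ± 0.16, adjusted p = 3.07e-05) were the other two. *Tmem140*, *Gbp8* and *Ifi27l2a* had been called higher in 3D as well. So had *Gbp11*, but nothing is read from that call, as it was in the cultures' table through its 3D samples only. The call of *Ifi27l2a* was lost without the Internal replicate 3 (0.95) and that of *Gbp8* without the External replicate 3 (1.04). That of *Gbp11* was lost without the Internal replicate 4 (2.46) or the External replicate 2 (2.27). That of *Tmem140* was lost without the Internal replicate 1 (1.72) or 4 (1.68) or the External replicate 1 (1.67). With the replicate block, *Ifi27l2a* was called and *Gbp8*, *Gbp11* and *Tmem140* were not.

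Levels of some other marker genes also differed between these groups, and those of others did not. The summed level of the fibroblast markers, of which 5 of 6 were measured in the cultures, was 70.1 to 227 CPM in 2D and 448 to 699.8 CPM in 3D, with *Dcn* (5.86 ± 0.93, adjusted p = 0.00287) and *Col3a1* (2.49 ± 0.42, adjusted p = 0.00384) called higher in 3D. *Col1a2* was lower in every 3D than in every 2D sample but did not pass (-1.47 ± 0.48, adjusted p = 0.0574), and neither did *Col1a1* (0.27 ± 0.39, adjusted p = 0.671) and *Pdgfra* (0.81 ± 0.44, adjusted p = 0.219). In the regions 4 of the 6 were measured, at 402 to 494 CPM in the Internal and 219 to 586 CPM in the External samples, and *Col3a1* was higher (1.59 ± 0.24, adjusted p = 3.68e-05) and *Col1a1* lower (-1.56 ± 0.28, adjusted p = 0.000206) in the Internal region, whereas *Dcn* (0.34 ± 0.26, adjusted p = 0.384) and *Pdgfra* (-0.15 ± 0.31, adjusted p = 0.779) did not pass. Of the 6 lens markers, *Prox1* (1.45 ± 0.14, adjusted p = 1.3e-07) and *Maf* (1.25 ± 0.20, adjusted p = 7.45e-05), transcription factors of fibre cell differentiation, were higher in the Internal region, and none was called in the cultures, where 5 were under an unadjusted p of 0.05. The share of mitochondrially encoded reads, given above, was higher in every 3D than in every 2D sample and in every Internal than in every External sample. The part of these differences in the values of the interferon-stimulated genes was not tested. Of 10 leukocyte markers, 2 were measured in the regions, *Cd68* and *Csf1r*, with a summed level of 2.06 to 8.20 CPM in the Internal and 0.165 to 10.01 CPM in the External samples. The other 8 were not among the genes measured.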

How the data were processed

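RNA from 15 samples of 21EM15 cells was sequenced from transcript 3′ ends. The submitters' processing notes name STAR 2.7.8a and featureCounts 1.6.0, and the genome build was GRCm38.p6. The authors deposited log2 CPM per sample and gene, already filtered on low genes, in 1 table for the cultures and 1 for the regions. The authors' own log2 fold changes, p-values, FDR and F scores in the deposited tables, which hold their comparisons, were not used.

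The spacing of the deposited values gave whole reads for 100% of 93416 values in the cultures and 79093 in the regions (tolerance 0.01), from which depth and CPM were computed. As the files hold log2 values, limma 3.58.1 (R 4.3.3, moderated test with a variance trend, two-sided, Benjamini-Hochberg over all genes of a table, group as the only term) replaced a count-based test. A call required both an adjusted p below 0.01 and a change of more than 1 on the log2 scale. The test was also run on simulated reads with a fixed dispersion, and no result above rests on that run. Depth sets the precision: intervals and the floor of 3 reads cover counting error only, since PCR copies are not independent molecules.

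The members and the lists of pathway genes, other interferon-induced genes and markers were chosen with earlier results of these data known. Values in every sample are given for called members, at most the 10 with the largest change per comparison and direction, and for *Stat2*, *Irf9*, *Irf7*, *Irf1*, *Isg15*, *Usp18* and *Ifit1* whatever their values. Of the other lists, genes are named when called, at most the 8 with the largest change per comparison, as are *Ifnb1*, *Ifnar1*, *Ifnar2*, *Ifngr1*, *Jak1*, *Tyk2*, *Irf3*, *Mavs* and *Socs1*. The values of 1 further pathway gene, which the counts include, are not reported here. Alternatives were voom on the recovered reads, no variance trend, a robust prior, no fold threshold, median-centred samples, a filter on low genes, another prior count, a replicate block, leaving out samples, another threshold and 1 mismatch in the motif. Gene positions came from GENCODE vM21 (11934 of 11935 IDs matched) and promoters from RefSeq (GRCm38.p6). Python 3.11.15 with numpy 2.4.6, pandas 2.3.3 and matplotlib 3.10.9 was used.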

Additional observations from a re-analysis of the deposited data

Results flagged for a closer look

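Members were screened for single samples far from the rest of their group, in 113 groups of 4 samples, of which chance flags about 1 in 20, and 6 were found. Among the 3D samples, *Herc6* was low in replicate 2 (1.62 log2 CPM, 23 reads against 43 to 50), and *Rtp4* (5.09 log2 CPM, 265 reads against 490 to 566) and *Ifi44* (5.65 log2 CPM, 393 reads against 928 to 1113) were low in replicate 1. *Ifit2* was high in the 2D replicate 1 (4.02 log2 CPM, 153 reads against 36 to 54). Among the Internal samples, *Ifi35* was low in replicate 2 (5.67 log2 CPM, 439 reads in one of the deeper libraries) and *Xaf1* high in replicate 4 (4.23 log2 CPM, 224 reads against 42 to 93).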

How the results depend on the processing

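The median log2 fold change of the members stayed above 0 in all alternatives, from 1.84 to 2.39 in 3D and from 0.21 to 0.60 in the Internal region without 1 sample. The counts of calls depended on the settings, and the cause was not tested. Without the variance trend, 14 instead of 22 members, 9 instead of 16 other interferon-induced genes and 1 instead of 3 pathway genes were called higher in 3D, and 0 instead of 2 members, 2 instead of 4 other genes and 0 instead of 1 lower pathway gene in the regions. With voom the region counts were 0, 2 and 0. At an adjusted p under 0.05, 34 other genes were higher and 2 lower in 3D, and in the regions 1 other gene was lower and 2 pathway genes higher. Same-numbered samples deviated together only in part (correlations 0.227, 0.503, 0.0661 and 0.00521 in the cultures, -0.0440, -0.065 and -0.0634 in the regions), so the numbers were not taken to pair the samples. With a replicate block, 27 members were called higher in 3D, and in the regions 1 member, 1 other gene and 0 lower pathway genes. Leaving out 1 sample gave 8 to 30 members, 4 to 30 other genes and 1 to 3 pathway genes higher in 3D, and 1 to 3 members, 2 to 5 other genes and 0 to 1 lower pathway genes in the regions. The direction turned in genes with small differences: without 1 sample, *Ifnar1* ranged from -0.29 to 0.41 in 3D (0.17 without the 3D replicate 4), and in the regions *Zbp1* from -0.35 to 0.32, *Gbp3* from -0.88 to 0.70, *Isg15* from -0.13 to 0.38, *Ifnar2* from -0.375 to 0.65 and *Tyk2* from -0.12 to 0.33. It also turned in *Trim25* in 3D (-0.25 to 0.91), and in the regions in *Herc6* (-0.46 to 0.67), *Dtx3l* (-0.05 to 0.55), *Oasl2* (-0.03 to 0.58), *Parp9* (-0.03 to 0.56) and *Ifi27* (-0.27 to 0.002). With the replicate block *Ifnar2* was at -0.375 and *Tyk2* at -0.12, and with median-centred samples at -0.0384 and -0.0003. With 1 mismatch allowed, the response element core was found in 85.7% of member windows against 35.4% of all windows.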
